A study of Mus musculus with 10 samples.

Results

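The NF-κB family and its feedback inhibitors were followed in mouse hepatocytes after loss of Nrf2, of the NF-κB subunit p65, or of both. The 5 subunit genes were Rela, Relb, Rel, Nfkb1, and Nfkb2. The 5 others, grouped as inhibitors and feedback, were Nfkbia, Nfkbib, Nfkbie, Tnfaip3, and Birc3. These 10 genes were taken from the deposited table by gene identifier, whatever their values, and all 10 were found among its 21939 genes. Each of them had at least 10 counts summed over the libraries, so each entered the test over 13641 genes.

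RNA was sequenced from hepatocytes of 10 male mice on the C57BL/6J background, 12 days after AAV8Cre injection. Their age is given as 8 to 9 weeks, and the labels do not say whether at injection or at harvest. AAV8Cre is an adeno-associated virus that carries the Cre recombinase under the thyroxine-binding globulin promoter, which is active in hepatocytes, so other liver cells of these mice kept their floxed alleles. The 3 libraries labelled control came from wild-type mice without floxed alleles, the 2 labelled Nrf2 KO from Nrf2 flox/flox mice, the 2 labelled p65 KO from p65 flox/flox mice, and the 3 labelled DKO from mice with both floxed genes. All 4 groups, controls included, received AAV8Cre. The cells were obtained by Liberase perfusion, slow centrifugation, and a Percoll step, and the libraries were stranded and made from poly-A RNA. Total counts were between 33707165 and 49897382 per library.

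NF-κB proteins bind DNA as dimers of 5 subunits. Rela (p65), Relb, and Rel carry a transactivation domain, whereas Nfkb1 and Nfkb2 encode the precursors p105 and p100 of the DNA-binding subunits p50 and p52. The inhibitors IκBα, IκBβ, and IκBε, encoded by Nfkbia, Nfkbib, and Nfkbie, hold dimers in the cytoplasm until IκB kinase marks them for degradation. Several of these genes, among them Nfkbia and Tnfaip3, are themselves switched on by NF-κB and close a negative feedback loop. In the liver, the pathway is known for protecting hepatocytes from the lethal effect of tumor necrosis factor and for driving acute-phase genes.

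NF-κB dimers bind DNA at κB sites, and the start regions of the genes were searched for the letters of such sites. RefSeq promoter windows (GRCm38.p6) from 250 bases before to 50 bases after a start were present for 8 members, with 11 windows in all, and their positions in GRCm39 were found by exact match. Relb and Nfkb1 had no window. Both strands were searched for 2 motifs of 10 letters, which can overlap. The first was 3 G, any 2 letters, 3 T, and 2 C, and the second was 3 G, any 2 letters, 2 T, and 3 C. They occurred in windows of Rel, Nfkb2, Nfkbia, and Tnfaip3, and in none of Rela, Nfkbib, Nfkbie, and Birc3. Of 32851 windows of the same length in all genes, 1.63% held the first, 1.75% the second, and 3.24% either of them. The stretches of the 4 genes are shown because they carry these letters. Capitals mark the matched letters, and each stretch is read 5′ to 3′ on the strand of its gene.
Rel, chr11:23721043-23721069, minus strand: taagcagcGGGAAATCCCCccccctcc
Nfkb2, chr19:46293129-46293154, plus strand: atcgtcacGGGAATTCCCcccctcgg
Nfkb2, chr19:46293157-46293175, plus strand: ggccgaaaGGGGCTTTCCC
Nfkb2, chr19:46294136-46294161, plus strand: gtattttcGGGACTTTCCtaagcagc
Nfkbia, chr12:55539444-55539469, minus strand: actggcttGGAAATTCCCcgcgcctg
Tnfaip3, chr10:18891159-18891178, minus strand: tttccatcGGAAATCCCCct

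Counted from the start as 0, the letters lay at -92 to -82 in Rel, at -29 to -20 in Nfkbia, and at -12 to -3 in Tnfaip3. In Nfkb2, they lay at -39 to -30 and at -11 to -1 of the first window, and at 10 to 19 of the second window, a place that the third window also contained. Only the stretch of Nfkbia lay outside annotated exons of its own gene in GENCODE M39. A match is a description of letters, and no binding was measured in these libraries.

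The targeted genes were examined first. Nfe2l2, which encodes Nrf2, had 2318, 1991, and 1990 normalized counts in the controls and 1993 and 1997 in the libraries labelled p65 KO. In those labelled Nrf2 KO, it had 4739 and 5005, and in those labelled DKO 4111, 3434, and 5240. Every library labelled with a loss of Nrf2 was above every other library, with a log2 fold change of 1.21 ± 0.16 (SE) in Nrf2 KO (edgeR adjusted p = 0.00488) and 1.02 ± 0.14 in DKO (edgeR adjusted p = 0.00347). The direction goes against a lower gene total under the label. A gene total sums reads over all exons, and reads of the deleted exons cannot be counted apart in the table.

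Rela, the gene of p65, was not lower in the libraries labelled p65 KO or DKO beyond the spread. It had 1221, 1276, and 1269 normalized counts in the controls, 1268 and 1225 in Nrf2 KO, 1183 and 1209 in p65 KO, and 1488, 1241, and 1034 in DKO. Both p65 KO libraries lay just under the lowest control, and the DKO libraries lay on both sides of the controls. The log2 fold change was -0.07 in p65 KO, with a 95% interval from -0.38 to 0.23, and -0.00095 in DKO, with an interval from -0.27 to 0.27. In fold terms, the p65 KO value was 0.952 of control. The gene totals thus do not check the p65 labels. The paper reports an efficient knockout of both genes in isolated hepatocytes, by RT-qPCR and Western blot. It also reports lower RNA of known target genes of each factor. Whether the mice of these libraries were among those tested is not stated. The groups are named below as their libraries are labelled. RNA was measured in whole cell preparations, in which fewer cells of a type and less RNA per cell cannot be told apart.

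**Figure D1:**
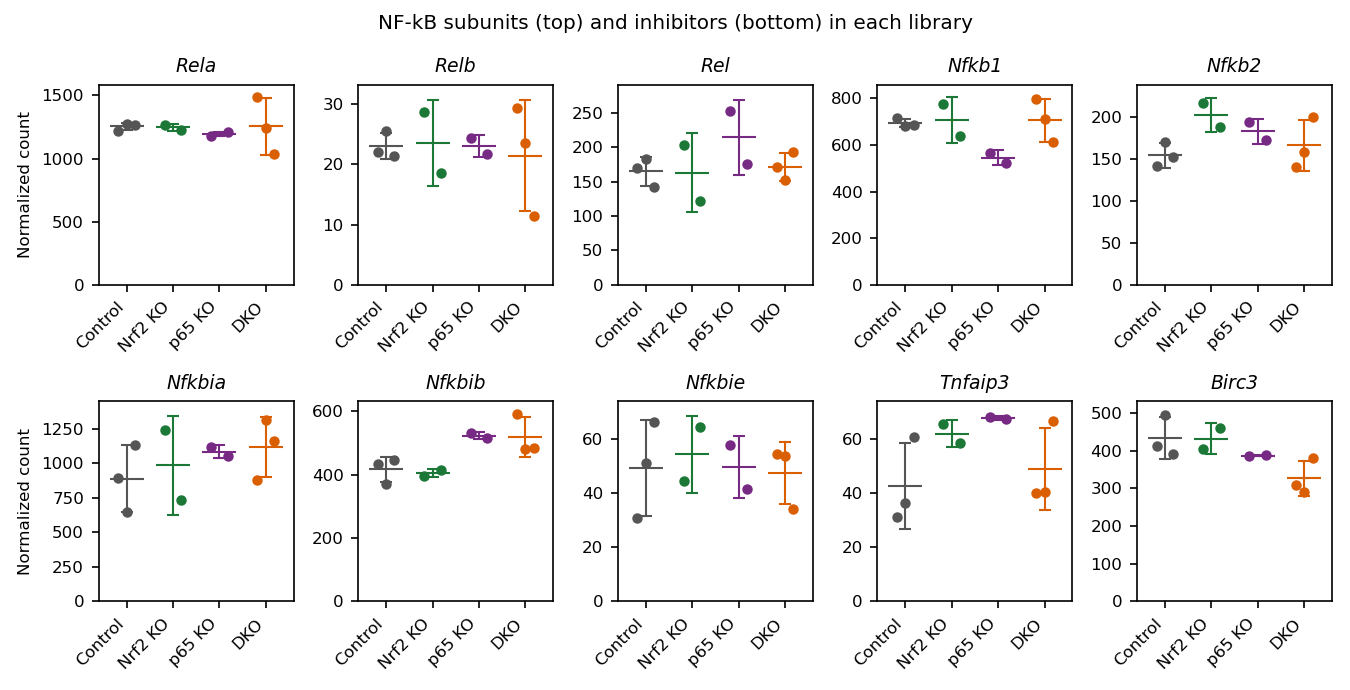
Normalized counts (vertical axes, linear from 0) of the 10 members in each library, by genotype label. Points are libraries, long dashes are group means, and bars are the SD of 3 (Control, DKO) or 2 (Nrf2 KO, p65 KO) libraries. Nfkbib was at 481 to 591 in the 5 libraries labelled p65 KO or DKO and at 372 to 445 in the 5 others.

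No member passed an adjusted p of 0.05 in any of the 6 planned comparisons, which made 60 tests. Nfkb1 was lowest in p65 KO, Nfkbib was highest in p65 KO and DKO, and Birc3 was lowest in DKO, at between 0.753-fold and 1.25-fold of control, and none of these differences survived adjustment. DESeq2 and limma passed 0 members in these comparisons as well. Of all genes tested, 8.13% passed as higher and 6.77% as lower in p65 KO against control. In DKO against control, 2.61% passed as higher and 2.84% as lower, and in Nrf2 KO against control 0.132% and 0.594%. Between DKO and p65 KO, the shares of all genes were 2.05% and 2.06%, between DKO and Nrf2 KO 0.323% and 0.191%, and in the interaction 0.264% and 0.205%.

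The size of the members' differences is given by their intervals. The median absolute log2 fold change of the 10 members was 0.04 in Nrf2 KO, 0.27 in p65 KO, and 0.10 for DKO, whereas over all genes it was 0.19, 0.34, and 0.25. A change of 2-fold in either direction lay outside the 95% interval of 7 members in Nrf2 KO, of 8 in p65 KO, and of 9 for DKO. The interval reached 2-fold for Relb in each of these comparisons, for Tnfaip3 in both single knockouts, and for Nfkbie in Nrf2 KO. These genes had between 10 and 80 counts per library. For Tnfaip3 and Nfkbie, in the comparisons just named, a 2-fold rise cannot be told from none at this depth and number of mice. A 2-fold fall lay outside their intervals. For Relb, neither a 2-fold rise nor a 2-fold fall can be told from none in the single knockouts, and in DKO this holds for a fall.

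**Figure D2:**
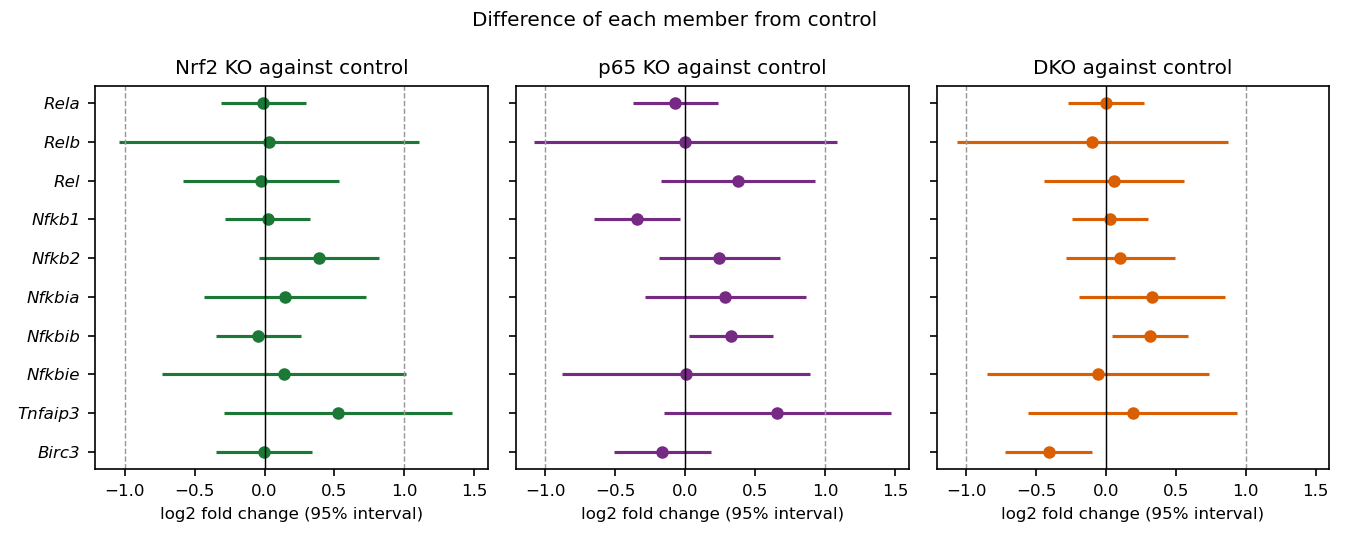
Log2 fold change (horizontal axis) of each member against control for the 3 knockout labels, as points with 95% intervals from edgeR. Dashed lines mark 2-fold in either direction. The intervals of Nfkb1 and Nfkbib in p65 KO and of Nfkbib and Birc3 in DKO leave out 0 before adjustment, and the longest are those of Relb, Nfkbie, and Tnfaip3.

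Among the subunits with a transactivation domain, Rel and Relb had lower counts than Rela. Rel (chr11:23686847-23721264), the c-Rel gene best known from lymphoid cells, had 170, 183, and 142 normalized counts in the controls, 204 and 122 in Nrf2 KO, 253 and 176 in p65 KO, and 171, 151, and 192 in DKO. The single knockout libraries of 1 label differed from each other by more than the groups did, and all 4 groups overlapped. Its log2 fold change in p65 KO was 0.38, with an interval from -0.17 to 0.93.

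Relb (chr7:19339017-19363425), the partner of p52 in the non-canonical pathway, was the member with the fewest reads, between 10 and 29 counts per library. Its normalized counts were 22.1, 25.6, and 21.5 in the controls, 28.7 and 18.6 in Nrf2 KO, 24.4 and 21.7 in p65 KO, and 29.5, 23.6, and 11.4 in DKO. The groups overlapped, and the lowest and the highest value were both in DKO. Counting error alone amounts to 20.9% of a typical Relb value.

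The precursor genes were at opposite sides of control in p65 KO, neither past the adjusted threshold. Nfkb1 (chr3:135290264-135397742) had 714, 680, and 687 normalized counts in the controls, 775 and 636 in Nrf2 KO, 567 and 523 in p65 KO, and 796, 710, and 612 in DKO. Both p65 KO libraries were under all 8 others. Its log2 fold change was -0.35 ± 0.14 (SE) in p65 KO against control (interval -0.66 to -0.04), or 0.785 of control, with an edgeR adjusted p of 0.114. DKO was 0.37 ± 0.14 above p65 KO (adjusted p = 0.151) and differed from control by 0.03, with an interval from -0.25 to 0.30. The interaction, which is the difference of DKO from Nrf2 KO minus that of p65 KO from control, was 0.35 (interval -0.08 to 0.78, adjusted p = 0.444).

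Nfkb2 (chr19:46292759-46303812) had 141, 171, and 152 normalized counts in the controls, 218 and 188 in Nrf2 KO, 194 and 173 in p65 KO, and 141, 158, and 200 in DKO. The single knockout libraries were all above the controls, and those labelled DKO overlapped with them. On the log2 scale, the difference from control was 0.39 in Nrf2 KO (interval -0.04 to 0.82, edgeR adjusted p = 0.608) and 0.24 in p65 KO (interval -0.19 to 0.68, adjusted p = 0.425). Its interaction of -0.53 (interval -1.14 to 0.08) had an edgeR adjusted p of 0.42.

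The IκB genes differed in their spread. Nfkbia (chr12:55535332-55539432), the fastest of the feedback inhibitors, had 890, 642, and 1131 normalized counts in the controls, 1239 and 730 in Nrf2 KO, 1114 and 1052 in p65 KO, and 878, 1308, and 1157 in DKO. Both p65 KO values were within the range of the controls, and no group stood apart. Its difference from control was, as a log2 fold change, 0.29 in p65 KO (interval -0.29 to 0.86) and 0.33 in DKO (interval -0.19 to 0.85), so that a fall below 0.82-fold in p65 KO lay outside the interval.

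Nfkbib (chr7:28457486-28466937), whose product IκBβ is degraded and resynthesized slowly, had 433, 372, and 445 normalized counts in the controls and 395 and 413 in Nrf2 KO. It had 530 and 515 in p65 KO and 591, 481, and 484 in DKO. Every library labelled with a loss of p65 was above every library without it. The log2 fold change was 0.33 ± 0.14 (SE) in p65 KO (interval 0.03 to 0.63, edgeR adjusted p = 0.127) and 0.32 ± 0.12 in DKO (interval 0.05 to 0.59, adjusted p = 0.16), and against Nrf2 KO it was 0.36 in DKO (adjusted p = 0.267). The interaction was 0.03 (interval -0.39 to 0.46).

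Because Nfkbib was similarly high in both groups labelled with a loss of p65, the mean of the 2 differences was added as a contrast after these values had been seen. In this contrast, Nfkbib passed, with a log2 fold change of 0.34 ± 0.10 (SE, interval 0.13 to 0.56), or 1.27-fold, and an edgeR adjusted p of 0.0368. It was the only one of the 10 members to do so, in a comparison in which 8.80% of all genes were higher and 6.81% lower. The call was lost without Control 1 or 2, without either Nrf2 KO library, without either p65 KO library, and without DKO 1, where the adjusted p reached 0.115 at most while the log2 fold change stayed between 0.29 and 0.37. It rested on a choice made with the values in view and is not independent evidence. The matching contrast for Nrf2 passed 0 members, where 0.916% of all genes were higher and 1.21% lower. No member had an unadjusted p under 0.05 in it, and DESeq2 and limma passed 0 as well.

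Nfkbib overlaps Ccer2 and Sirt2 on the opposite strand, and the authors' counting used the strand. Sirt2 differed from control by -0.04 on the log2 scale in p65 KO (interval -0.31 to 0.23) and by -0.00075 in DKO, and Ccer2 had 0 or 1 count in each library.

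Nfkbie (chr17:45866585-45874661), the gene of IκBε, had 30.9, 51.1, and 66.3 normalized counts in the controls, 44.5 and 64.7 in Nrf2 KO, 57.9 and 41.6 in p65 KO, and 54.7, 53.9, and 34.3 in DKO. The controls spanned more than any other group, and its log2 fold changes against control lay between -0.06 and 0.14.

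The remaining members act upstream of IκB. Tnfaip3 (chr10:18874201-18891405) encodes A20, a ubiquitin-editing enzyme that dampens signaling from the tumor necrosis factor receptor, and it had 30.9, 36.4, and 60.7 normalized counts in the controls, 65.3 and 58.2 in Nrf2 KO, 68.1 and 67.1 in p65 KO, and 40.0, 40.4, and 66.4 in DKO. Both p65 KO libraries were above every other library, the nearest by 67.1 against 66.4 in DKO, and Control 3 lay within the range of Nrf2 KO. The log2 fold change was 0.66 in p65 KO (interval -0.16 to 1.47, edgeR adjusted p = 0.249), which is the largest of the 10 members in that comparison, and 0.53 in Nrf2 KO (interval -0.29 to 1.34). In DKO it was 0.19, and the interaction of -0.99 had an interval from -2.14 to 0.16 and an edgeR adjusted p of 0.421.

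Birc3 (chr9:7845790-7873229) encodes cIAP2, a ubiquitin ligase of the same receptor complex. It had 414, 497, and 392 normalized counts in the controls, 404 and 462 in Nrf2 KO, 386 and 389 in p65 KO, and 310, 291, and 380 in DKO. All 5 libraries labelled with a loss of p65 were under the 5 others, the nearest by 389 against 392. The log2 fold change was -0.41 ± 0.14 (SE) in DKO (interval -0.72 to -0.10, edgeR adjusted p = 0.118), or 0.753 of control, and -0.16 in p65 KO (interval -0.51 to 0.18). Against Nrf2 KO, it was -0.41 in DKO (adjusted p = 0.269), and over both Nrf2 states -0.28 (interval -0.53 to -0.04, adjusted p = 0.105). Birc3 lies beside its paralog Birc2. Estimated counts may be shared where transcripts are alike in sequence, which was not tested for this pair. Birc2 rose in p65 KO, with 412, 416, and 456 normalized counts in the controls against 629 and 661 (log2 fold change 0.59, edgeR adjusted p = 0.0227). In DKO, where Birc3 was lowest, Birc2 had 413, 561, and 481 (log2 fold change 0.18, edgeR adjusted p = 0.444).

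The libraries of p65 KO and control did not overlap for 6 members, those of DKO and control for 2, and those of Nrf2 KO and control for 1. Over all genes, the shares were 50%, 26.5%, and 28.5%, so these counts are near the background. Of the 10 members, 2 (Nfkbib and Birc3) had all 5 libraries with a loss of p65 on 1 side of all 5 others, against 8.88% of all genes. An unadjusted p under 0.05 was reached by 2 members in p65 KO (Nfkb1 and Nfkbib), 2 in DKO (Nfkbib and Birc3), and 0 in Nrf2 KO, against 31.6%, 22.5%, and 9.38% of all genes.

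Between genes, levels were compared as normalized counts per kilobase of the canonical transcript. Nfkbia had the highest median, 686 per kilobase, followed by Rela with 454 and Nfkbib with 339. Next came Nfkb1 with 145 and Birc3 with 67.6, and each of these was above the next in 9 or 10 of the 10 libraries. Nfkb2, Rel, and Nfkbie, at 25.5, 22.4, and 21.4, did not keep their order, as Nfkb2 was above Rel in 7 libraries and Rel above Nfkbie in 6. Tnfaip3 at 8.61 and Relb at 6.73 also changed places, with Tnfaip3 higher in 6 libraries. Hepatocyte preparations thus held mainly the RNA of Rela and Nfkb1 among the subunits and of Nfkbia and Nfkbib among the IκB genes.

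Rela made up a median of 69.9% of the per-kilobase sum of the 5 subunits, with 66.8% as the lowest and 72.9% as the highest library. The share of Nfkb1 was 22.3% ± 0.919 (SD, n = 3) in the controls and 18.7% ± 0.785 (SD, n = 2) in p65 KO, and the groups did not overlap. In DKO, it was 22.6% ± 0.522 (SD, n = 3). The Rel share was 3.22% ± 0.394 in the controls and 4.47% ± 1.07 in p65 KO, also without overlap. The share of Nfkb2 was 3.47% ± 0.285 in the controls and 4.40% ± 0.289 in p65 KO, again without overlap, and 4.50% ± 0.155 in Nrf2 KO. Of 18 exact permutation tests of shares and of the ratio below, two-sided, none had a p below 0.2 or an adjusted p below 0.72. With 2 libraries against 3, 0.2 is the smallest p this test can give, and with 3 against 3 it is 0.1.

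**Figure D3:**
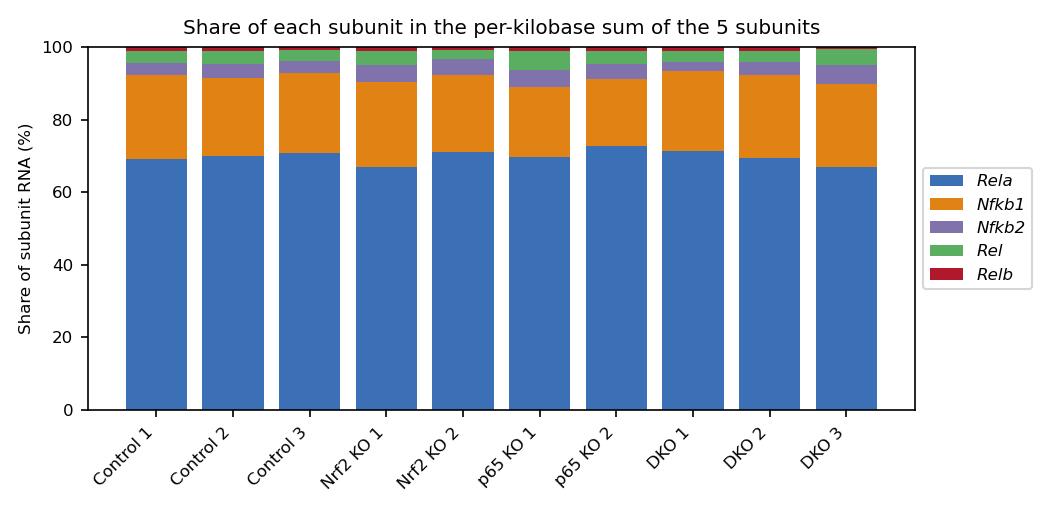
Share (vertical axis, percent) of each subunit gene in the per-kilobase sum of the 5 subunits, as stacked bars from 0, in each of the 10 libraries (horizontal axis). Rela takes between 66.8% and 72.9% of every bar, and Nfkb1 is smallest in the 2 p65 KO libraries, at 19.3% and 18.2%.

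The balance of inhibitor to subunit RNA was taken as the log2 ratio of summed Nfkbia, Nfkbib, and Nfkbie to summed Rela, Relb, and Rel, per kilobase. It was 0.83 ± 0.33 (SD, n = 3) in the controls, 0.93 ± 0.27 (SD, n = 2) in Nrf2 KO, and 1.20 ± 0.05 (SD, n = 2) in p65 KO. For DKO, it was 1.18 ± 0.33 (SD, n = 3). By library, the controls had 0.90, 0.48, and 1.12, the libraries labelled p65 KO 1.23 and 1.16, and those labelled DKO 0.80, 1.32, and 1.43. Both p65 KO values were above the controls, whereas those of DKO overlapped with them. The difference was 0.36 in p65 KO (exact permutation p = 0.2) and 0.35 in DKO (exact permutation p = 0.3).

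Other genes of the pathway were taken from lists, and these had been chosen with results of these data known. The lists were receptors and adaptors (16 genes), kinases (11), other inhibitors and feedback genes (17 of 18 tested), and NF-κB targets (19 of 20 tested). In Nrf2 KO against control, no gene of these lists passed. In p65 KO, 1 of the 16 receptors and adaptors was higher and 1 of the 11 kinases lower, counts near the shares of all genes (8.13% higher and 6.77% lower). The receptor was Tlr4, the receptor of endotoxin, with 1.1, 0.98, and 3.74 normalized counts in the controls against 35.6 and 18.0, a log2 fold change of 3.67. Of the kinases, Tab2, an adaptor of the TAK1 kinase, was lower by 0.62 on the log2 scale in p65 KO, and Chuk, the gene of the IKKα kinase, was lower in DKO (log2 fold change -0.40). Among the 17 other inhibitors and feedback genes tested, 3 rose in p65 KO and 0 in DKO, where 2.61% of all genes were higher. These were Birc2, Itch (0.70), a ubiquitin ligase that partners with A20, and N4bp1 (0.51). They and both kinase genes were named after their values had been seen.

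The target genes held larger differences than the members. Of 19 tested, 8 rose and 1 fell in p65 KO, where 8.13% of all genes were higher and 6.77% lower. In DKO, 1 rose and 1 fell, where 2.61% of all genes were higher and 2.84% lower. The counts of 1 are near these shares. The median log2 fold change over the list was 1.19 in p65 KO against 0.00090 over all genes, and 0.44 in DKO against 0.02. These medians include Tnf, Mmp9, Ccl2, and Cxcl2, named here for their low counts. They were at 2.95 normalized counts or less in every control, and none of them passed in either comparison. Saa3, an acute-phase gene, had 230, 92.4, and 124 normalized counts in the controls and 120 and 165 in Nrf2 KO, against 19.3 and 18.0 in p65 KO and 32.6, 26.9, and 14.9 in DKO. All 5 libraries labelled with a loss of p65 were under all 5 others, by a log2 fold change of -2.99 in p65 KO and -2.57 in DKO. Lcn2, another acute-phase gene, was 2.67 higher in p65 KO and 3.16 higher in DKO on the log2 scale, with 19.7 to 47.5 normalized counts in the controls and 185 to 344 in those groups. Vcam1, the adhesion molecule of endothelium, and Il1b, a cytokine of macrophages, were higher in p65 KO, with log2 fold changes of 3.22 and 2.80. Il1b was close to the detection limit in the controls, at 0.93 to 5.52 normalized counts.

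**Figure D4:**
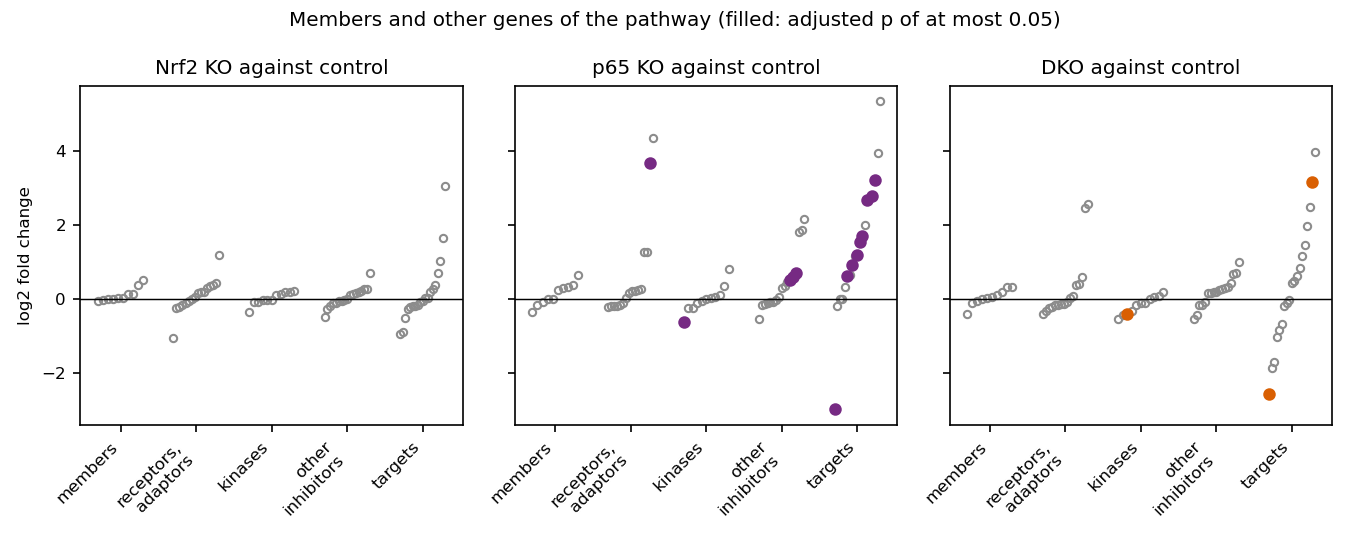
Log2 fold change against control (vertical axis) of the 10 members and of 4 lists of other pathway genes (horizontal axis) for the 3 knockout labels. Each point is a gene, ordered by its value within the list, and filled points have an adjusted p of at most 0.05. No member point is filled, and 9 target genes are filled in p65 KO and 2 in DKO.

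Markers of other liver cells were higher in p65 KO, and their values stand beside every member and target value of that group. All 12 Kupffer cell markers and all 12 of sinusoidal endothelial cells were higher in p65 KO, with median log2 fold changes of 2.80 and 1.83, as were 9 of 11 tested markers of stellate cells and 3 of 10 of monocytes and dendritic cells. In DKO, 5 of 12 Kupffer cell markers, 1 of 12 endothelial, 1 of 11 stellate cell, and 1 of 10 monocyte markers were higher. Over all genes, 8.13% were higher in p65 KO and 2.61% in DKO, which is the background for the marker counts here and in the next paragraph. The summed Kupffer cell markers were at 379 to 957 normalized counts in the controls, 264 to 815 in Nrf2 KO, 4470 to 6083 in p65 KO, and 1661 to 2924 in DKO. The endothelial sum was at 892 to 1976 in the controls, 1191 to 2306 in Nrf2 KO, 4618 to 6341 in p65 KO, and 2425 to 3646 in DKO. For stellate cells, the sums were 267 to 514, 213 to 424, 2704 to 2795, and 490 to 1281 in the same order. Monocyte and dendritic cell sums were 83.9 to 163, 55.8 to 139, 517 to 645, and 256 to 404. The part of these cells in the members' values was not tested. Of the hepatocyte markers, 11 of 12 were matched by symbol, and they summed to between 3906030 and 6060880 normalized counts. Of these, 2 were higher and 0 lower in p65 KO, and 3 were higher and 0 lower in DKO.

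Markers of the remaining cell types were scarcer. Of T and NK cell markers, 0 of 6 tested passed in p65 KO and 1 in DKO, of neutrophil markers 1 of 5 in p65 KO and 0 in DKO, and of B cell (6 tested) and cholangiocyte (5 tested) markers 0 in both. The sums in controls, Nrf2 KO, p65 KO, and DKO were 14.0 to 36.4, 63.0 to 64.3, 38.8 to 41.7, and 72.1 to 168 for T and NK cells. Cd4 alone made up most of this sum in the groups labelled Nrf2 KO, at 62.3 and 58.2 normalized counts, and DKO, at 139, 75.2, and 64.1, whereas Cd3d, Cd3e, Cd3g, Trac, and Cd8a were each at 9.47 or less in every library. For neutrophils, they were 2.80 to 6.88, 8.08 to 9.89, 12.3 to 54.9, and 11.4 to 49.4. B cell sums were 86.1 to 397, 137 to 162, 63.0 to 82.2, and 168 to 469, of which Ighm alone held 85.0 to 391, 131 to 155, 44.7 to 73.7, and 156 to 452. Cholangiocyte sums were 824 to 878, 826 to 917, 879 to 900, and 774 to 1052. The defining markers Blk of B cells and Ly6g of neutrophils were at 0 in every library.

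Genes with profiles most like those of the 3 members with the lowest p over the 4 genotypes were sought among the 10184 genes whose mean normalized count was 50 or more. Likeness was the root mean square difference of centred log2 values over the 10 libraries. For Nfkbib, these were Stk19, Itm2c, and Rnf26, at 0.0913, 0.0929, and 0.0975, against a median of 0.31 over all of these genes. For Birc3, they were Smad1 (0.0543), Zswim7 (0.0925), and Mettl9 (0.10), and for Nfkb1 Zscan21 (0.0767), Calcoco1 (0.0802), and Vps72 (0.0848). The points share their libraries, and the likeness is a description.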

How the data were processed

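Members and gene lists were chosen with earlier results of these data known. According to the methods of the study and the labels, the authors quantified stranded single-end reads with Salmon 1.10.3 (quant -l SF, with sequence bias correction) against GRCm39 and GENCODE M33, and used DESeq2 1.42.1 for their tests. The deposited values are whole numbers and were read as rounded estimated counts of each gene. The name of the table calls them normalized, yet totals and size factors differ between libraries, so that no scaling by depth is seen. The step from transcripts to genes is not given in the sources used here.

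Counts were tested with edgeR 4.0.16 (quasi-likelihood test, TMM, R 4.3.3) in 1 model of 4 genotypes, on the 13641 genes whose counts summed to 10 or more. Adjustment followed Benjamini and Hochberg over all of these genes, separately for every comparison, and a gene passed at an adjusted p of at most 0.05. The further limit of the study, a log2 fold change beyond 1 or -1, was reached by no member that passed. Errors are standard errors of the fit and intervals are 95% intervals from it. Normalized counts are counts divided by TMM-based size factors. Each library is a mouse. The edgeR p-values test a difference between genotypes against a spread between mice that was estimated over all 4 genotypes together. Shares and ratios used exact permutation tests with SciPy 1.17.1. All members were named whatever their values. Of each wider list, genes past both limits in p65 KO or DKO were named, at most 4 per list and comparison. Gene positions and lengths came from GENCODE M39 on GRCm39, and 21926 of 21939 identifiers had a symbol. In simulated counts for p65 KO against control, 76 of 100 genes changed 2-fold and 98 of 100 changed 4-fold were called. There were 13 false calls among 13500 genes. The changed genes were drawn only from genes with a mean of at least 50 counts, so the rates give no recovery for Relb. Above that limit they were not split by count level, so they give no separate recovery for members with few counts, such as Nfkbie and Tnfaip3. Changes smaller than 2-fold, such as those of Nfkb1, Nfkbib, and Birc3, were not simulated. Alternatives were DESeq2 1.42.0, limma 3.58.1 on log2(normalized count + 1), other scalings and filters, the replicate number as a block, the compared groups alone, and leaving out each library. The hepatocyte marker Tf was not matched under that symbol and was not analysed here. Figures were drawn with matplotlib 3.10.9. The labels give no batch or date, so none could be fitted.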

Additional observations from a re-analysis of the deposited data

How the results depend on the processing

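Over 19 settings and the 6 planned comparisons, 113 pairs of setting and comparison were run, and a member passed in 1 of them. Scaling to equal totals passed 1 member in p65 KO against control, Nfkbib, with a log2 fold change of 0.51 (edgeR adjusted p = 0.0255). This scaling moved the median of all genes in p65 KO by 0.18 on the log2 scale and that of the difference of DKO from p65 KO by -0.27. Under it, the log2 fold change turned to 0.11 for Rela and 0.0077 for Birc3 in p65 KO, to -0.20 for Rela and -0.22 for Nfkbia in DKO against p65 KO, and to -0.19 for Rela and -0.24 for Nfkbib in the interaction. The lowest adjusted p among the members ranged over the alternatives from 0.0255 to 0.245 in p65 KO, from 0.0671 to 0.28 in DKO, and from 0.442 to 0.962 in Nrf2 KO. Of 1130 values, 93 changed sign, 14 of them by more than 1 SE of the reported value, and only these 14 were taken as turned. Without 1 library each, the log2 fold change in Nrf2 KO ranged from -0.43 to 0.30 for Rel, from -0.13 to 0.16 for Nfkb1, and from -0.28 to 0.48 for Nfkbia, and that of Rela in DKO from -0.14 to 0.12. Against Nrf2 KO, the DKO value ranged from -0.25 to 0.49 for Rel and from -0.15 to 0.61 for Nfkbia, and the interaction from -0.62 to 0.11 for Rel and from -0.44 to 0.32 for Nfkbia. For the added contrast of p65 loss over both Nrf2 states, between 0 and 1 members passed without 1 library each.

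The labels do not say whether the replicate numbers pair the mice. Deviations of same-numbered libraries from their group means correlated at -0.23 to 0.11 in 13 pairs, and those of other pairs at -0.17 to 0.23. These values cannot decide it. In a group of 2, the deviations are mirror images, so each correlation with 1 library recurs with the opposite sign for the other. With the replicate number as a block, 0 members passed in each planned comparison, and 0 in the added contrast of p65 loss, where Nfkbib was lost. The Rela share of subunit RNA depended on the length used. With coding length it was 65.4% in the controls, 64.3% in Nrf2 KO, 65.1% for p65 KO, and 64.5% for DKO, and with the longest transcript 68.8% in the controls. The log2 ratio of inhibitors to subunits in p65 KO was 1.11 with the longest transcript and 0.96 with coding length. With 2 or 3 mice a group, depth and number of mice limit what can be seen of Relb, Nfkbie, and Tnfaip3. The causes of these shifts were not tested.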

Other observations

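Between the knockouts themselves, most of the 19 tested target genes did not pass, and no member did. In DKO against p65 KO, 3 of the 19 were lower and 0 higher, against 2.06% and 2.05% of all genes. Vcam1 had 222 and 164 normalized counts in p65 KO against 32.6, 55.0, and 24.0 in DKO (log2 fold change -2.37). Bcl2l1, which encodes the survival protein Bcl-xL, had 1615 and 1206 against 727, 725, and 1000 (log2 fold change -0.79). Ier3, an immediate early gene, had 33.5 and 16.1 against 4.21, 2.24, and 2.29. Each of the 3 was lower in all DKO libraries than in both p65 KO libraries, in which markers of Kupffer, endothelial, and stellate cells were also higher, and the part of those cells was not tested. In DKO against Nrf2 KO, 1 target was higher and 1 lower, against 0.323% and 0.191% of all genes. They were Lcn2 (log2 fold change 2.88) and Saa3 (log2 fold change -2.51). These genes were named after their values had been seen.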
